A study of Mus musculus with 8 samples.

Results

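Red blood cell genes were followed in whole skin of mouse embryos that lack p63, the product of Trp63 and a transcription factor that stratified epithelia need. The genes are 5 globins (Hba-a1, Hba-x, Hbb-b1, Hbb-b2 and Hbb-y), 3 enzymes of heme synthesis (Alas2, Fech and Urod) and 2 proteins of the red cell membrane (Slc4a1 and Sptb). They were found as every probe set, the group of short oligonucleotides that reports 1 transcript on an Affymetrix array, whose platform annotation gave exactly 1 of these symbols. Of the 10 genes 9 had such a probe set, with 14 probe sets in all, out of 13675 genes with a probe set of 1 symbol in the series. Hbb-b1 had none. The animals were E18.5 embryos, shortly before birth, from crosses between p63 heterozygotes, either p63 null or wild type. The sources used here do not give strain, sex or the design of the mutant allele. For each genotype there were 2 arrays of the A chip and 2 of the B chip, which carry different probe sets, so that each chip was read apart. Every embryo gave whole skin, which holds epidermis, dermis, vessels, nerves, fat and the blood left in the vessels. In such bulk tissue, fewer cells of a type and less RNA per cell cannot be told apart.

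Hemoglobin is built of 2 alpha-type and 2 beta-type chains, each holding a heme group. In the mouse, primitive red cells from the yolk sac make embryonic chains, among them zeta (Hba-x) and epsilon-y (Hbb-y). Definitive red cells, which come from the fetal liver before birth, make the adult chains of Hba-a1, Hba-a2 and the Hbb-b genes, and supply nearly all circulating cells late in gestation. Heme is made in a chain of enzymes that starts with an aminolevulinate synthase, Alas2 in red cells and Alas1 elsewhere, and ends with ferrochelatase (Fech). Circulating young red cells still carry RNA, globin transcripts included.

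Upstream sequence is shown for 4 members, an adult alpha globin, both embryonic globins and the erythroid synthase, because the contrast of embryonic with adult globins turns on the first ones and Alas2 is the erythroid enzyme. Windows before the start of 6 of the 10 genes were matched by symbol in the RefSeq sequences used here (build GRCm38.p6). Each line gives the 250 bases before the start, 5′ to 3′ on the gene's strand. Capitals mark GATAA (letters that GATA factors bind), CACCC (letters that Klf factors bind), CCAAT, and the TATA-box letters TATAAA and ATATAA, each searched on both strands.
Hba-a1, chr11:32283422-32283671, plus strand: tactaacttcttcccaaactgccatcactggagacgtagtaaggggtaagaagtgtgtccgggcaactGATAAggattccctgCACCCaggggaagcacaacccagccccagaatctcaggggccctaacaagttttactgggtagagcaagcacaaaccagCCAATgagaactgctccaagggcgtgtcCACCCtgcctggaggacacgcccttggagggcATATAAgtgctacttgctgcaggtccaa
Hba-x, chr11:32276350-32276599, plus strand: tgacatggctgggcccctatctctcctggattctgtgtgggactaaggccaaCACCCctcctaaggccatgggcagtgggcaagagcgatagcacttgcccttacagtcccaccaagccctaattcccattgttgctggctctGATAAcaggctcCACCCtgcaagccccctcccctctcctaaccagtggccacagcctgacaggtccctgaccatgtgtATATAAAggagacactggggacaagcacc
Hbb-y, chr7:103853208-103853457, minus strand: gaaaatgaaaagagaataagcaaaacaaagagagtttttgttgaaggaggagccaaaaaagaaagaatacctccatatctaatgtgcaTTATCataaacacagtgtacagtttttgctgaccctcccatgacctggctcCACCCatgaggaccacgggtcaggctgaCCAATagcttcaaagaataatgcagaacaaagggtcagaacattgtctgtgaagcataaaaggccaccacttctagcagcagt
Alas2, chrX:150547167-150547416, plus strand: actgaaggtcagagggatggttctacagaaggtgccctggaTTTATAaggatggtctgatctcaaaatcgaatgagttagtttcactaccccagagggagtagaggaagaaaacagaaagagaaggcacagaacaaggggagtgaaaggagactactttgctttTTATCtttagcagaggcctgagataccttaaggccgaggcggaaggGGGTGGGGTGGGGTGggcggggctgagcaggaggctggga
GATAA was in all 4 of these windows, and in 22.6% of the 32851 windows of the same length before RefSeq gene starts. CACCC was in the same 4 and in 52.0% of all windows. In Hba-a1 the letters ATATAA began 28 bases before the start, and CCAAT began 88 bases before it. In Hba-x the letters ATATAA began 29 bases before the start and overlap a TATAAA. In Hbb-y neither TATA spelling was present, and CCAAT began 83 bases before the start. CCAAT was in 33.8% of all windows, TATAAA in 12.4% and ATATAA in 9.1%. In Alas2 the 3 CACCC matches, read on the opposite strand, lay end to end and began 40, 35 and 30 bases before the start. The Urod and Sptb windows, which are not shown, held no GATAA.

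The array data themselves stood as follows. On the A chip Trp63 read 379.3 and 347.1 in wild-type skin against 61.9 and 46.6 in null skin, so the labels and the target's signal ran the same way. Its probe set could not be placed relative to the mutation. All signals are MAS5 intensities, already scaled by the authors to a common level on each chip. The null array numbered 2 stood apart in CreX, a spiked-in control transcript. Its 3′ probe set read 6420 there, and 3334 to 3837 in the other A-chip arrays. The B-chip readings were 32512, and 16966 to 18942 in the others. Results that rest on this array are given with and without it. The 3′ to 5′ ratio of beta-actin, which reads RNA integrity, stood at 1.63 and 1.69 for wild type on the A chip, and at 1.27 for each null array. The keratinocyte list, which checks the tissue, summed to 34487 and 33151 in wild-type skin but only 3922 and 4565 in null skin on the A chip. All 7 of its tested genes were lower, beside 22.2% of all tested probe sets of that chip.

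Red cell genes of null skin were modestly higher or not distinguishable from wild type, and none of the tested probe sets was lower at the threshold. A probe set was tested when its mean log2 signal was above the 40th percentile of its chip. The threshold was an adjusted p of 0.05 by limma over all tested probe sets. Of the 14 member probe sets 9 were tested, 4 were called higher and 0 lower. The means of both genotypes lay above the level for testing for all 4. At an unadjusted limma p under 0.05 the members gave 5 rises and 0 falls. The share of all tested probe sets at that p is not given here, so this count cannot be set against one. On the A chip 2 of 6 tested members were called higher and 0 lower, beside 22.1% and 22.2% of all 7453 tested probe sets. On the B chip 2 of 3 were called higher and 0 lower, beside 14.5% and 14.9% of 7446. The tested members had a median log2 fold change of 0.22 (A chip) and 0.58 (B chip), and all tested probe sets had 0.02 and 0.04. Both null arrays lay above both wild-type arrays for 3 of 6 tested members on the A chip, beside 37.8% of all tested probe sets, and for 3 of 3 on the B chip, beside 36.1%. With so few members these shares describe the members only.

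**Figure D1:**
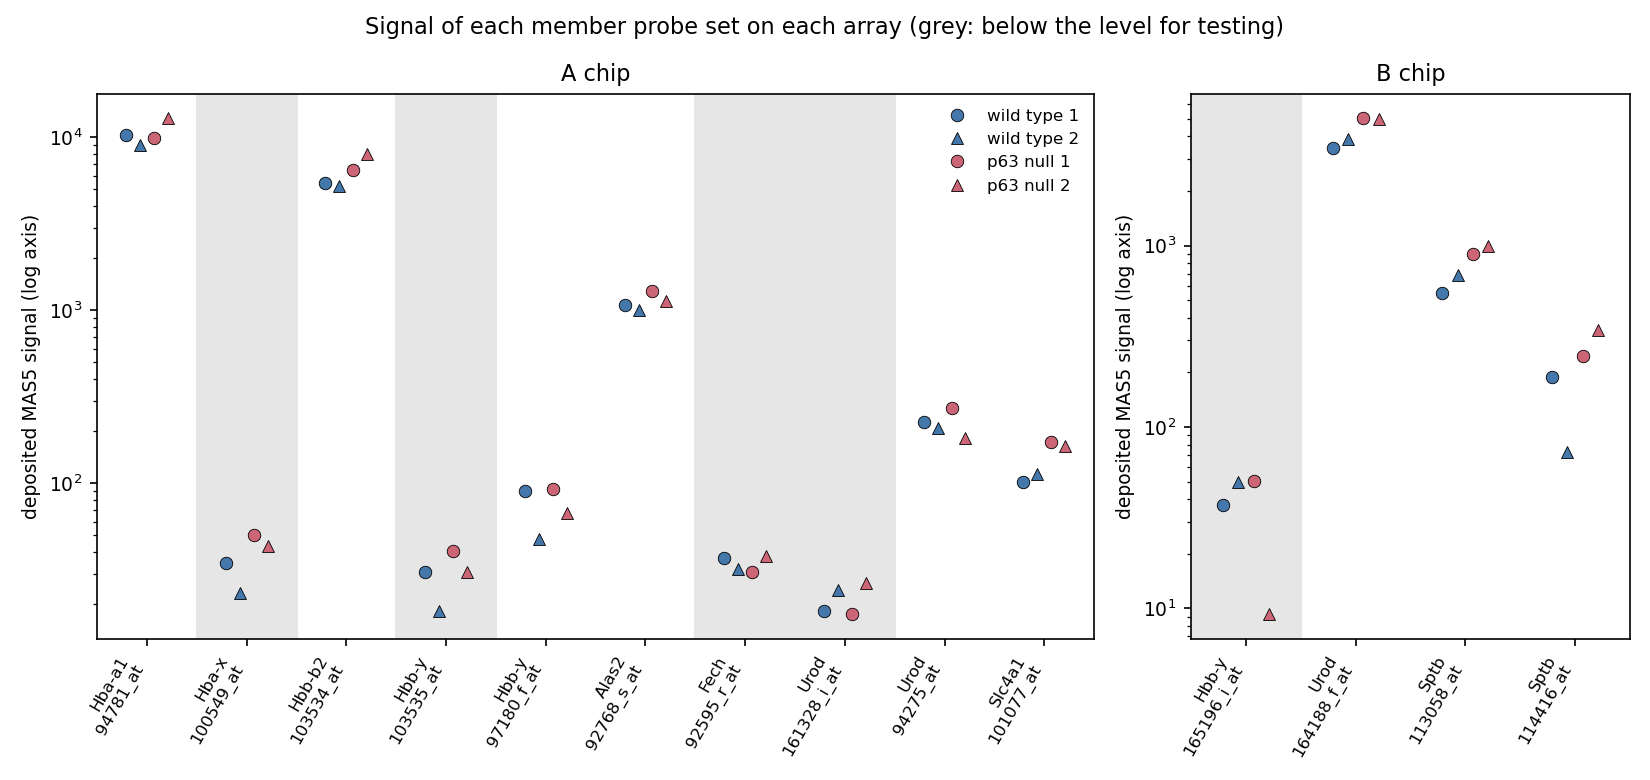
Deposited MAS5 signal (log axis) of each of the 14 member probe sets on each array of the A chip (left) and the B chip (right), wild type in blue and p63 null in red, replicate 1 as circles and replicate 2 as triangles. Adult globins read between 5249 and 12896, Hba-x between 23.1 and 50.1, and the grey columns mark probe sets below the level for testing.

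The adult globin probe sets read near the top of the signal range. Hba-a1, an adult alpha chain, read 10274 and 9015 in wild-type skin against 9878 and 12896 in null skin. The groups overlapped, since null array 1 lay between the 2 wild-type arrays. In both null arrays this probe set was the brightest of all 12488 on the chip, and in both wild-type arrays it ranked 2. Saturation of such signals could not be checked from these values. The fitted log2 fold change was 0.23 (SE 0.15, limma adjusted p = 0.251). Without null array 2 it was 0.04 (adjusted p = 0.747), and without null array 1 it was 0.42 (adjusted p = 0.000934), so the value turned on which null array was read.

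Hbb-b2, an adult beta chain, read 5419 and 5249 in wild-type skin against 6482 and 7986 in null skin, 5334 ± 121 (SD, n = 2) against 7234 ± 1063. Both null arrays lay above both wild-type arrays, and the null arrays lay further from each other than the wild-type arrays did. The log2 fold change was 0.43 (SE 0.13, limma adjusted p = 0.0264). Without null array 2 it was 0.28 (adjusted p = 0.0140), so that array did not decide the call. The call was lost without wild-type array 1 (adjusted p = 0.177) and without wild-type array 2 (0.253). It was also lost with median centring (0.0606), with no filter (0.0847), with no variance trend (0.0649) and with the replicate number as a block (0.0539). Adult globin probe sets can bind the transcripts of near-identical copies, so Hba-a1 and Hbb-b2 name the probe sets rather than 1 gene each.

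All 4 embryonic globin probe sets read below the median signal of their chip on every array. Hba-x read 34.4 and 23.1 in wild-type skin against 50.1 and 43.5 in null skin. Both null arrays were above both wild-type arrays. This probe set was below the level for testing and ranked 7678 to 8848 from the top in the 4 arrays. Fitted with no filter on low values, it differed by 0.53 on the log2 scale (SE 0.26, 95% interval -0.10 to 1.16, limma adjusted p = 0.201), and by 0.61 without null array 2 (adjusted p = 0.291). Among all probe sets fitted with no filter, 11.9% were called higher and 35.3% had both null arrays above both wild-type arrays.

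Hbb-y had 3 probe sets, none of which differed past the threshold. The first, 103535_at, read 30.6 and 18.2 in wild-type skin against 40.6 and 30.7 in null skin. The groups touched, with 0.1 signal units between the higher wild-type and the lower null array. With no filter it differed by 0.39 on the log2 scale (SE 0.28, limma adjusted p = 0.362), and by 0.54 without null array 2 (adjusted p = 0.358). The probe set 97180_f_at, the only tested one, read 90.6 and 47.5 in wild-type skin against 92.4 and 67.4 in null skin, which overlap. Here the log2 fold change was 0.22 (SE 0.29, limma adjusted p = 0.563), and it was -0.17 without wild-type array 2 and 0.41 without null array 2. On the B chip 165196_i_at read 37.3 and 50 in wild-type skin against 50.5 and 9.3 in null skin, again overlapping, with a log2 fold change of -0.26 with no filter (adjusted p = 0.587). The sign came from null array 2, and without it the value was 0.10 (adjusted p = 0.816). Detection calls were not used here, so no embryonic globin could be called present or absent.

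The embryonic and adult globins were contrasted on the A chip, which holds both kinds. On each array the log2 values of Hba-x and Hbb-y were averaged and the average of Hba-a1 and Hbb-b2 was taken from it. Levels of different probe sets cannot be set against each other, so only the difference between arrays is read. Relative to the wild-type mean, this contrast was 0.20 and -0.20 in wild-type arrays 1 and 2, and 0.38 and -0.21 in null arrays 1 and 2. The genotypes overlapped, and the null mean exceeded the wild-type mean by 0.09, less than the SD of 0.28 in wild type and 0.42 in the null (n = 2). The sign turned to -0.10 with the offset at the 40th percentile, to -0.11 without wild-type array 2 and to -0.21 without null array 1. The contrast was 0.29 without wild-type array 1 and 0.38 without null array 2, and it stayed positive with an offset of 1. The offset mainly alters dim probe sets, here the embryonic ones. Thus 97180_f_at of Hbb-y had 0.14 with the larger offset and 0.26 with an offset of 1, while Hba-a1 had 0.23 with either. A shift between embryonic and adult globins was therefore not detectable. No p is given for this score, and 2 against 2 arrays leave it little precision.

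The arrays of a genotype differed from each other as follows. The embryonic average of null array 2 differed by -0.25 from that of null array 1 on the log2 scale, while the adult average lay 0.34 above it. In wild type the embryonic average differed by -0.51 between arrays 2 and 1 and the adult average by -0.12. Thus null array 2, the array with the high CreX signal, was also the highest for both adult globins, while null array 1 was the highest for the 3 probe sets of Hba-x and Hbb-y on the A chip. Hbb-bh1, an embryonic beta chain that is not a member, did not share that order: it was highest in null array 2, with 45.6 there and 35.0 in null array 1. The part of that array in the result was measured only as the values without it.

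**Figure D2:**
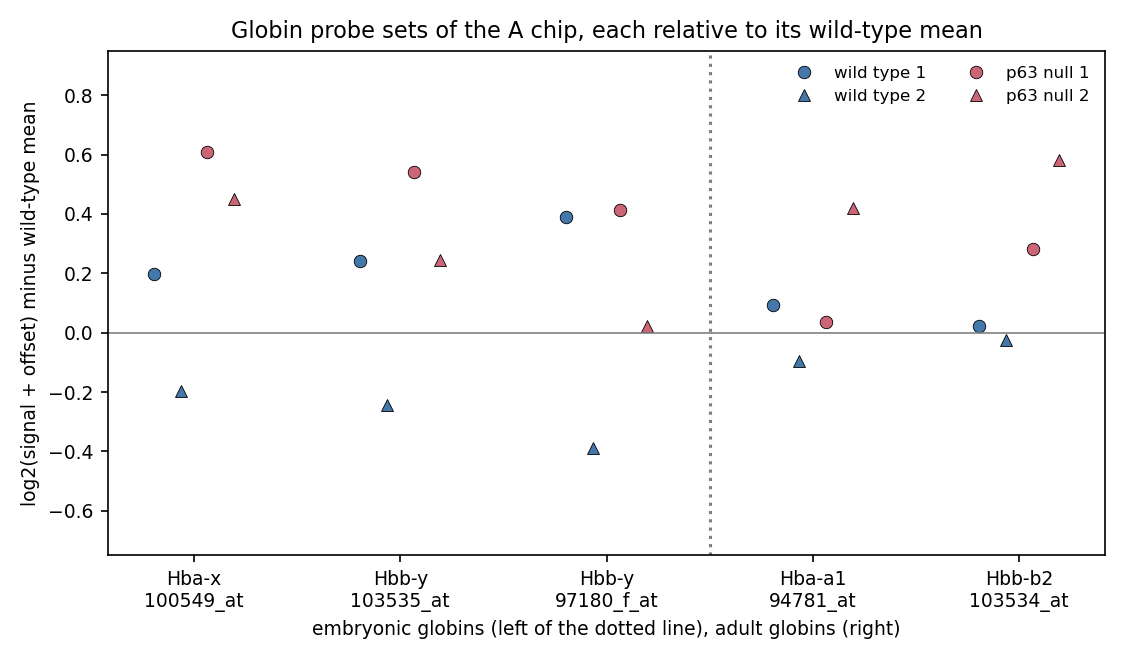
Log2(signal + offset) of each globin probe set of the A chip on each array, minus the mean of the 2 wild-type arrays, with embryonic globins left of the dotted line and adult globins right of it; colours and symbols separate genotype and replicate. Null array 2 is the highest point for both adult globins, while null array 1 is the highest for all 3 embryonic probe sets.

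Heme synthesis members gave 1 call among 5 probe sets. Alas2, the erythroid first enzyme of the pathway, read 1077 and 1004 in wild-type skin against 1296 and 1133 in null skin. Both null arrays were above both wild-type arrays, but the gap was small, and the log2 fold change of 0.22 (SE 0.12, limma adjusted p = 0.172) was not past the threshold. Without null array 2 it was 0.31 (adjusted p = 0.0536). Fech, the last enzyme, which inserts iron into the ring, read 36.9 and 31.8 in wild-type skin against 30.7 and 37.9 in null skin. The groups overlapped, the probe set was too dim to be tested, and its log2 fold change with no filter was -0.0037 (95% interval -0.59 to 0.59). It was -0.11 without null array 2 and 0.11 without null array 1.

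Urod, the decarboxylase in the middle of the pathway, is present in all cells and had 3 probe sets, of which 1 was called. On the B chip 164188_f_at read 3447 and 3872 in wild-type skin against 5032 and 4959 in null skin, so that both null arrays were above both wild-type arrays. The log2 fold change there was 0.45 (SE 0.12, limma adjusted p = 0.0281). That call held without null array 1 (0.0250) or null array 2 (0.0252). It was lost without wild-type array 1 (0.213), without wild-type array 2 (0.0890), with no filter (0.0637) and with no variance trend (0.0808). On the A chip 94275_at read 225.9 and 209.0 in wild-type skin against 273.0 and 181.3 in null skin, whose arrays lay on either side of wild type. The fitted log2 difference was 0.03 (SE 0.20, limma adjusted p = 0.904), turning to -0.02 without wild-type array 2 and to -0.25 without null array 1. The third, 161328_i_at, was not tested and read 17.5 to 26.5 across all arrays, and its log2 fold change with no filter was 0.02, turning to -0.16 without null array 2 and to -0.10 without wild-type array 1.

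The membrane members had the largest log2 fold changes among the 4 calls, 0.59 and 0.58. Slc4a1, the band 3 anion exchanger that carries bicarbonate and anchors the skeleton, read 102.1 and 113.6 in wild-type skin against 174.0 and 164.6 in null skin. That is 108 ± 8.13 (SD, n = 2) against 169 ± 6.65, with both null arrays above both wild-type arrays. For Slc4a1 the log2 fold change was 0.59 (SE 0.17, limma adjusted p = 0.0199), and 0.63 without null array 2 (adjusted p = 0.0352). The call was lost without wild-type array 1 (0.0968), wild-type array 2 (0.0517) or null array 1 (0.0548).

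Sptb, the beta spectrin of the red cell skeleton, which skeletal muscle also makes, had 2 probe sets on the B chip. Probe set 113058_at read 550.6 and 686.0 in wild-type skin against 901.0 and 988.6 in null skin, with no overlap. Its log2 fold change was 0.58 (SE 0.16, limma adjusted p = 0.0359). This call was lost without null array 2 (0.51, adjusted p = 0.0666), without wild-type array 1 (0.223) or wild-type array 2 (0.0641), with no filter (0.0595) and with no variance trend (0.0563). Probe set 114416_at read 188.9 and 72.3 in wild-type skin against 245.3 and 341.8 in null skin, also without overlap. The wild-type arrays differed widely, and its log2 fold change of 0.97 (SE 0.35, adjusted p = 0.0759) was not past the threshold. It entered the test through its null arrays, the wild-type mean being below the level for testing, and was not tested without null array 2. It passed with the replicate block (adjusted p = 0.0264), without wild-type array 1 (1.44, adjusted p = 0.0250) and without null array 1 (1.17, adjusted p = 0.0348).

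**Figure D3:**
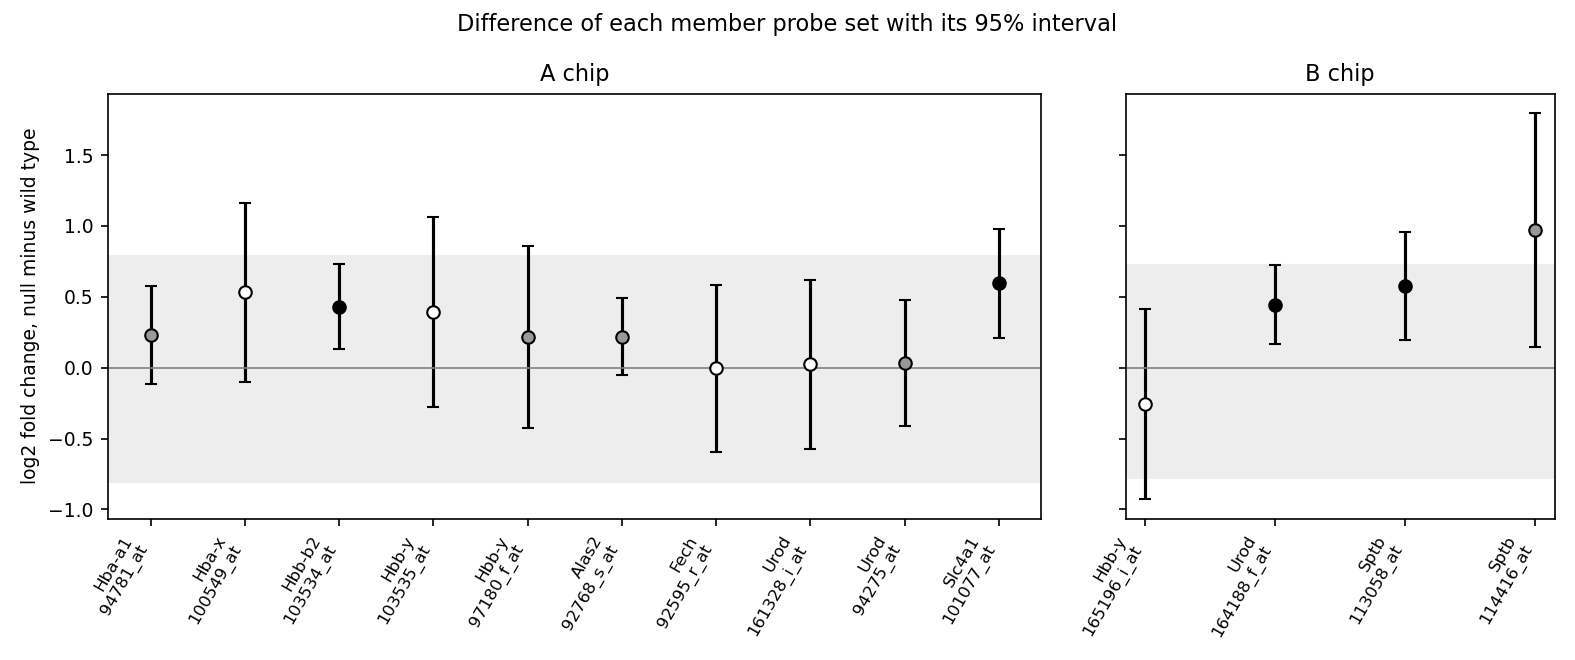
Log2 fold change (null minus wild type) of each member probe set with its 95% interval from limma; black points passed an adjusted p of 0.05, grey points were tested and did not, and open points were fitted with no filter. The grey band spans the 10th to the 90th percentile of all tested probe sets (-0.81 to 0.79 on the A chip, -0.78 to 0.72 on the B chip), and all 4 called members lie inside it.

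Other tissue components moved with genotype beside these values. Blood vessel endothelium, which encloses the blood, had 6 of 8 tested marker genes higher and 0 lower on the A chip, with a median log2 fold change of 0.77. Its summed signal was 2897 and 2957 in wild-type skin against 5057 and 5553 in null skin. Skeletal muscle had 8 of 8 higher, with sums of 11548 and 11002 against 22760 and 26356. Leukocytes had 9 of 9 tested genes higher, with sums of 3225 and 2690 against 7412 and 7833. Among these Ptprc was tested through its null arrays. Its wild-type values, 50.6 and 47.7, lay below the level for testing, a signal of about 54.0 on the A chip. Dividing cells had 6 of 7 tested genes lower and 0 higher, with sums of 4368 and 4331 against 2430 and 2396. These counts stand beside 22.1% higher and 22.2% lower among all tested probe sets of the A chip. Platelet markers were dim on the A chip, summing to 67.5 to 98.6 over 4 genes, none of them tested. Among plasma proteins of liver, Alb was the 1 gene tested on the A chip. Albumin (Alb) read 47.5 and 41.9 in wild-type skin against 268.8 and 285.0 in null skin (log2 fold change 2.33, limma adjusted p = 1.44e-05). Both wild-type values of Alb lay below the level for testing, so it was tested through its null arrays, which favoured a call. Trf, the 1 tested on the B chip, had 0.04 (0.890). No marker of these lists was at 0 in all arrays. The part of these components in the red cell values was not tested.

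The wider set of red cell genes, 87 symbols in 6 lists, divided by list. On the A chip 38 of these genes were tested, 15 rose and 3 fell, with a median log2 fold change of 0.35. On the B chip 16 were tested, 4 rose and 3 fell, with a median of 0.35. All tested probe sets gave 22.1% higher and 22.2% lower for the A chip; the B chip gave 14.5% and 14.9%. The B-chip count was 4 in all without wild-type array 1 and also without wild-type array 2. A gene that enters the test through the genotype where it is high was favoured to differ, though not every such gene was called. On the A chip 6 of the 38 tested genes entered through 1 genotype, 2 of them called higher (Dmtn and Epor) and 1 lower (Nfe2). The B-chip numbers were 2 of 16, with Kel called higher and Add2 lower. These counts read each gene by its brightest tested probe set. With every tested probe set of the listed genes counted, 18 rose and 5 fell on the A chip, and 4 rose and 4 fell on the B chip. Most of the listed genes are active outside red cells as well.

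Heme synthesis and heme transport genes outside the members had 4 of 8 tested genes higher and 0 lower on the A chip. All tested probe sets of that chip gave 22.1% and 22.2%. On the B chip 0 of 3 were called by limma (1 higher at an unadjusted p under 0.05, for which no overall share is given). Alas1, the first enzyme in cells other than red cells, rose from 753 ± 8.56 (SD, n = 2) to 1792 ± 184, with a log2 change of 1.23 (SE 0.12, limma adjusted p = 5.89e-05). The erythroid isoenzyme Alas2 had 0.22 in the same fit. Alad, the second enzyme of the path, and Uros, a later one, both rose by 0.53, and the mitochondrial carrier Slc25a39 rose by 0.50. The Alas1 call held in every alternative run, while that of Uros was lost without wild-type array 2 (adjusted p = 0.187), without null array 2 (0.0554) and with no filter (0.0525). Alad lost its call without wild-type array 2 (0.0683) or null array 2 (0.0721), and Slc25a39 without wild-type array 2 (0.0570).

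Membrane and skeleton genes outside the members had 5 of 8 tested genes higher and 0 lower on the A chip. All tested probe sets of that chip gave 22.1% and 22.2%. On the B chip 2 were higher and 1 lower of 3, beside 14.5% and 14.9%. Dmtn (dematin, an actin-bundling protein) read 35.5 and 30.1 in wild-type skin against 174.5 and 161.5 in null skin, with a log2 change of 1.99. Its wild-type arrays lay below the level for testing, a signal of about 54.0 on the A chip, so it was tested through its null arrays. Ank1, the ankyrin that ties spectrin to band 3 and has a muscle form, read 356.9 and 311.6 against 1153 and 916.6 (1.59). Tpm3, a tropomyosin of slow muscle and of the red cell skeleton, had 1.10, and Cd59a, an inhibitor of complement, had 0.80. These 4 had limma adjusted p-values of at most 0.00369. The muscle markers given above, 8 of 8 higher, moved with them.

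On the B chip Kel, a red cell surface protease, rose by 0.96 (limma adjusted p = 0.0395) and the glycophorin Gypc by 0.92 (0.0247). Kel entered the test through its null arrays and was not tested without either one of them. Its call was lost without wild-type array 2 (0.218) and with no filter (0.0923). Gypc lost it without wild-type array 1 (0.0970) and with no filter (0.0567). Add2, the beta adducin of red cells and brain, fell from 287 ± 46.3 (SD, n = 2) to 109 ± 21.1, with a log2 change of -1.06 (adjusted p = 0.0202, and 0.0529 with no filter). Its null mean lay below the level for testing, a signal of about 167 on the B chip, and Add2 was not tested without either wild-type array. Membrane genes called on the B chip thus went both ways.

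Among enzymes and regulators of late red cell development, 3 of 12 tested on the A chip rose and 2 fell. All tested probe sets of that chip gave 22.1% higher and 22.2% lower, and the list had a median log2 fold change of 0.04. Of 4 tested on the B chip 1 rose and 1 fell, beside 14.5% and 14.9%. The counts of this list were therefore not set apart from those shares. Epor, the erythropoietin receptor, read 45.8 and 40.4 in wild-type skin against 90.2 and 112.5 in null skin (log2 fold change 1.02, limma adjusted p = 0.00495). Both wild-type values lay below the level for testing, so Epor was tested through its null arrays. Catalase (Cat) rose by 0.64 (0.00700). Nfe2, a transcription factor of red cell and platelet precursors, read 107.9 and 133.1 against 51.8 in both null arrays (-1.04, adjusted p = 0.00337), and was tested through its wild-type arrays. Myb, a factor of dividing progenitors, had -0.65 (0.0220), a call lost without wild-type array 1 (0.0506), wild-type array 2 (0.0810) or null array 2 (0.102), and with no filter (0.0592).

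Bcl11a, a regulator of the switch from embryonic to adult globins that other tissues also express, fell on the B chip. It read 1338 and 1310 in wild-type skin against 249.3 and 433.0 in null skin, with a log2 change of -1.84 (SE 0.23, limma adjusted p = 0.00142). The embryonic minus adult globin contrast on the A chip was 0.09, within the spread of the arrays. Bpgm, which makes the bisphosphoglycerate that lowers the oxygen affinity of hemoglobin, rose by 0.53 on the B chip (0.0209). It lost that call without wild-type array 1 (0.114) or wild-type array 2 (0.106) and with no variance trend (0.0515). For its A-chip probe set the log2 fold change was -0.12 (adjusted p = 0.586).

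Iron and clearance genes gave some of the larger values. Tfrc, the transferrin receptor that takes up iron, read 497.7 and 737.9 in wild-type skin against 1073 and 1212 in null skin on the A chip (log2 fold change 0.90, limma adjusted p = 0.00314), and had 0.19 on the B chip (0.355). Slc40a1, the iron exporter ferroportin, fell from 3511 ± 221 (SD, n = 2) to 1670 ± 244 (-1.05, adjusted p = 0.00196). It was the 1 iron gene called lower of 5 tested on the B chip, beside 14.9% of all tested probe sets. Tfrc was the 1 called higher of 5 on the A chip, beside 22.1%. Haptoglobin (Hp), which binds free hemoglobin and is also an acute phase protein, rose from 383 ± 2.19 to 1453 ± 214 (1.88, adjusted p = 8.74e-06).

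The macrophage hemoglobin receptor Cd163 rose from 627 ± 19.0 (SD, n = 2) to 1462 ± 134 on the B chip (log2 fold change 1.15, limma adjusted p = 0.00136), and the receptor Lrp1 by 1.06 on the A chip (0.000161). Heme oxygenase 1 (Hmox1), which breaks heme down and responds to stress, read 1293 and 1181 in wild-type skin against 731.3 and 455.6 in null skin. For Hmox1 the log2 difference was -1.08 (SE 0.19, limma adjusted p = 0.00195). Hp, Cd163 and Lrp1 thus rose while Hmox1 fell. The leukocyte markers, 9 of 9 higher, moved with Cd163, and their part in it was not tested.

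**Figure D4:**
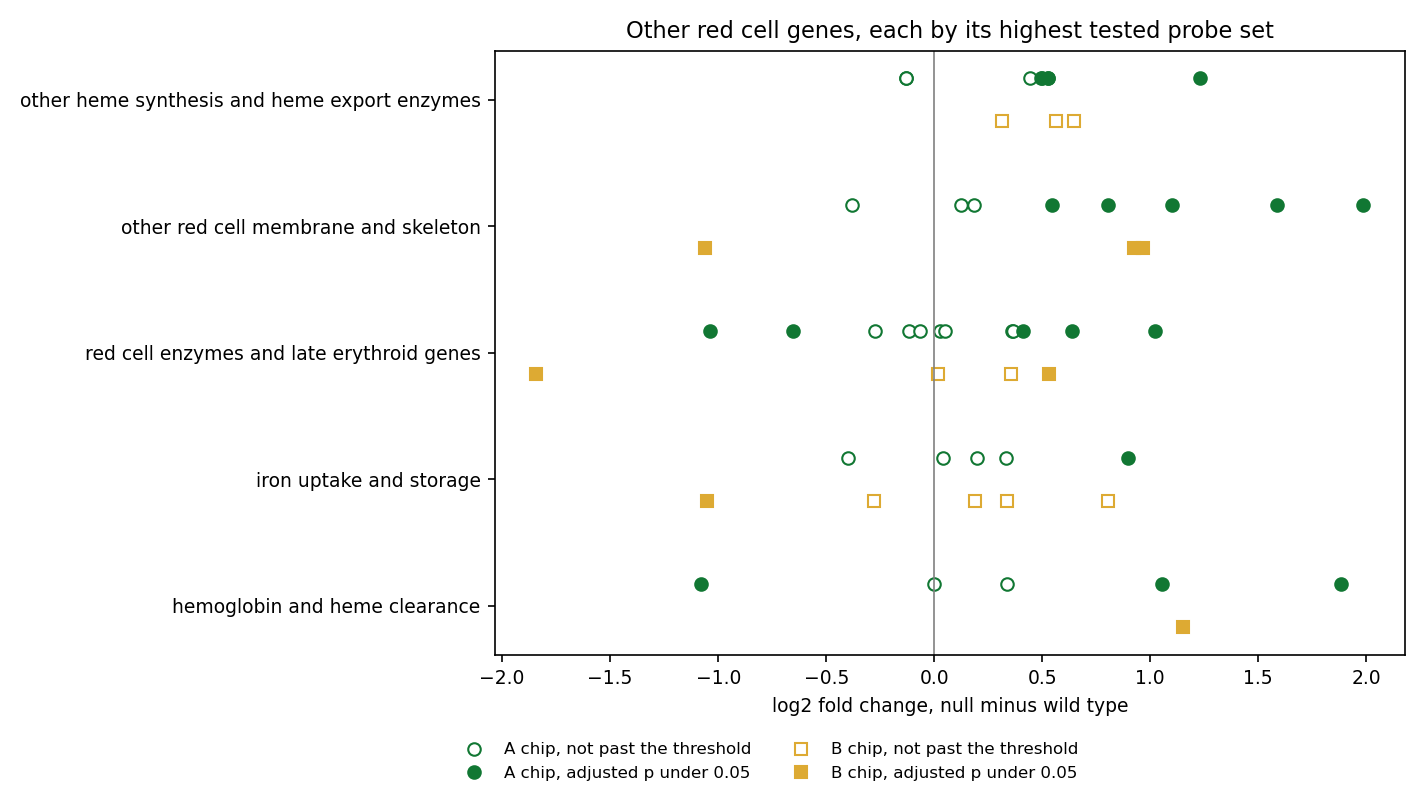
Log2 fold change (null minus wild type) of the other red cell genes by list, each gene by its tested probe set with the highest mean signal, circles for the A chip and squares for the B chip, filled where the adjusted p was under 0.05. Membrane genes of the A chip reach 1.99 (Dmtn), and Bcl11a on the B chip is the lowest at -1.84.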

How the data were processed

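The deposited values are linear signal intensities per probe set, made by the authors with MAS5 per the submitters' processing notes. The sources used here give no version or detection call. Each array was rescaled to a common 2% trimmed mean (250.1 to 250.2 for the A chip and 500.1 for the B chip before rescaling). An offset at the 20th percentile of signals (12.9 and 54.3) was added before log2, so fold changes of dim probe sets are understated. The 66 control probe sets per chip were left out. limma 3.58.1 in R 4.3.3 (lmFit, eBayes with intensity trend, two-sided) was fitted per chip without pairing, with Benjamini-Hochberg adjustment over all tested probe sets. The fit was tested on simulated data: changes of 1 on the log2 scale were called for 59% of probe sets on the simulated A chip and 42% on the simulated B chip. Per chip 100 probe sets changed by 1 and 100 by 2, all above the median signal, far fewer than were called in the real data. Every member changed by less than 1, so these shares do not give the power for the members. The p-values rest on the spread between 2 arrays per genotype, which limma draws towards the intensity trend over all tested probe sets. The number of arrays limits the precision.

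Symbols came from the platform annotation, which can be old. It gave 1 symbol to 10855 probe sets of the A chip, several to 396 and none to 1237, and on the B chip 10603, 178 and 1696. Members and lists were chosen with earlier results of these data known. Named were all member probe sets and, per list and chip, up to 4 called genes with the largest change whose groups did not overlap, plus any other listed globin. A gene of these lists was read by its brightest tested probe set. Alternatives were scaling, offset, filter, variance trend, a replicate block and leaving out each array (for untested members with no filter).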

Additional observations from a re-analysis of the deposited data

How the results depend on the processing

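Of 124 values of member probe sets under an alternative, 116 kept their direction, 18 lost a call and 4 gained one. The 8 that turned, none of them called, included 97180_f_at of Hbb-y (-0.17 to 0.61 with an array left out, negative without wild-type replicate 2) and 94275_at of Urod (-0.25 to 0.31 with an array left out, with -0.02 without wild-type replicate 2 and -0.25 lacking null replicate 1). Leaving out an array with no filter, chosen after seeing the data, turned 3 untested probe sets: 92595_r_at of Fech (-0.11 to 0.11, with 0.074 without wild-type replicate 1), 161328_i_at of Urod (-0.16 to 0.21, with -0.10 without wild-type replicate 1) and 165196_i_at of Hbb-y (-0.62 to 0.10). All 267 values of the other named genes kept their direction, and 18 lost their call. In both counts, changing only the filter, the variance trend or the replicate block cannot alter a log2 fold change. Direction was fixed in advance for those values, and only the calls could change. Members called on the A chip, 2 as reported, were 1 with median centring, no filter, the filter at the 60th percentile, no variance trend or the replicate block, and 0 to 2 with an array left out. On the B chip, 2 as reported, they were 0 with no filter or no variance trend, and 0 to 3 with an array left out. Other red cell genes called on the B chip were 7 as reported, 4 with no filter and 4 to 10 with an array left out. The embryonic minus adult contrast, 0.09, was -0.10 with the offset at the 40th percentile and stayed positive with an offset of 1. With an array left out it was -0.21 to 0.38. Over the whole A chip 3299 probe sets were called, and 2125 (without wild-type replicate 2) to 3375 with an array left out. The B chip gave 2189, and 1119 (without wild-type replicate 2) to 2599. The replicate numbers share only a name: deviations of same-numbered arrays correlated at 0.04 (A chip) and -0.05 (B chip). The cause of these changes was not tested, except that leaving out an array leaves a genotype with 1 array, which limma then assumes to vary like the other genotype, and that the filter at the 60th percentile left Slc4a1, Hbb-y 97180_f_at and Sptb 114416_at untested, as well as Dmtn, Kel, Add2, Epor and Nfe2. With MAS5 signals alone, signal over background could not be read.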

Other observations

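A few globin probe sets lie outside the members because their annotation lists several symbols or another globin. Hbb-bh1, a further embryonic beta chain, was also dim and untested, with 29.1 and 30.9 in wild-type skin against 35.0 and 45.6 in null skin. The alpha globin pseudogene Hba-ps3, named after its values were seen, read 454.9 and 500.4 in wild-type skin against 643.4 and 523.1 in null skin (log2 fold change 0.28, limma adjusted p = 0.141).

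Of the 3 A-chip probe sets annotated to several adult globin genes, which cannot be assigned to any of them, 162457_f_at read 5590 and 4872 in wild-type skin against 6465 and 7377 in null skin (log2 fold change 0.40, limma adjusted p = 0.0308). That call was lost with no filter (limma adjusted p = 0.0913). Another, 101869_s_at, read 9363 and 8701 against 9314 and 12807 (0.27, adjusted p = 0.191), the same order of arrays as Hba-a1. The last, 160560_at, is annotated to the same 4 genes as 101869_s_at and read only 0.3 to 1.8 on every array. These probe sets were singled out after their values were seen.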
